A study of Mus musculus with 60 samples.

Results

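The genes described here are the mouse genes named Zfp (zinc finger protein) followed by a digit. They were chosen by a mean level of at least 10 CPM (counts scaled to the library's total) over all 60 libraries. This gave 199 of the 366 Zfp genes in the table, which holds 22869 gene symbols. The levels themselves chose these genes and are given as a description. Just inside the threshold lay Zfp951 with a mean of 10.4 CPM, Zfp953 with 10.3 CPM and Zfp334 with 10.0274 CPM, and just outside it lay Zfp202 with 9.91 CPM, Zfp498 with 9.83 CPM, Zfp780b with 9.79 CPM and Zfp595 with 9.79 CPM. P14 and P60 libraries made up 45 of the 60, so the mean leans to genes with counts at those ages, and shares over members are therefore also set beside all genes that reach the same mean. Stage means reached 10 CPM in every stage for 141 members. The other members passed through the stages where they were high.

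The study sequenced poly(A) RNA of microglia, the resident macrophages of the brain, from C57BL/6N mice, at several ages and after lipopolysaccharide (LPS), the outer membrane glycolipid of Gram-negative bacteria that Tlr4 detects. No transgene or mutation is named, and the labels used here do not state the LPS dose or interval. By title, untreated microglia gave 4 male and 3 female libraries at embryonic day 18 (E18), 4 of each sex at postnatal day 4 (P4) and 10 of each sex at P14. At P60 there were 7 male and 6 female libraries from mice given LPS, and 5 male and 7 female libraries from mice given saline. The labels do not say whether each library is 1 animal or a pool, so p-values measure the spread between libraries. For 10 libraries the sex in the title and in the sex characteristic differ, and the title was used.

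Most Zfp genes encode proteins with C2H2 zinc fingers, short modules that hold a zinc ion and read DNA bases, often in long arrays. Those that also carry a KRAB box recruit the co-repressor Trim28 (KAP1), which brings in the histone methyltransferase Setdb1 and heterochromatin proteins, and many of them silence retroelements or guard imprinted loci. The Zfp36 family is different: its members carry CCCH fingers that bind AU-rich stretches of mRNA and recruit the CCR4-NOT deadenylase, which shortens the messages of cytokines such as Tnf in macrophages.

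The label of transcription factors did not cover every member. Translated GENCODE vM21 coding sequences of 198 members were searched with a sequence pattern for the KRAB box. Here and below, no KRAB box means no match to this pattern, so members whose box it missed are counted there. Of the 198, 76 matched the KRAB pattern. Another 99 had at least 3 C2H2 matches and no KRAB match, and 23 had fewer than 3 C2H2 matches. The last class held Zfp36, Zfp36l1 and Zfp36l2, with 2 CCCH matches each, and Zfp185, an actin-associated LIM protein with 0 C2H2 matches. One older name, Zfp862, had no protein matched. Several symbols have been renamed in RefSeq, among them Zfp238 (Zbtb18), Zfp295 (Zbtb21), Zfp161 (Zbtb14), Zfp187 (Zscan26) and Zfp191 (Zfp24). The chromosomes with the most members were 7 (36), 17 (24), 8 (18) and 13 (15), and chromosome 17 held 18 KRAB members.

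The 250 bases upstream of the annotated start are shown for 4 members on which the results below turn: Zfp36, the mRNA decay gene that increased at each developmental step, Zfp52, a KRAB gene with all P60 saline libraries above those of P14, Zfp57, the imprinting regulator with the largest fall after E18, and Zfp46, whose LPS libraries all lay above saline. The sequences are from RefSeq on GRCm38.p6, not the mm9 assembly of the counts. They are chr7:28379229-28379478 on the minus strand, chr17:21535289-21535538 on the plus strand, chr17:37003416-37003665 on the plus strand and chr4:136284426-136284675 on the plus strand. Capitals mark the motifs found. The letters TATAAA of the TATA box were searched on both strands, as were CCAAT of the CCAAT box. The same was done for the GC box, spelled GGGCGG, and for the ETS motif, spelled CCGGAAG. A cyclic AMP response element (TGACGTCA) was looked for in the same way. So were the E-box of bHLH factors (CACGTG) and the motif of Yy1 (AAGATGGCG), and none of these overlaps another in the windows shown.
Zfp36: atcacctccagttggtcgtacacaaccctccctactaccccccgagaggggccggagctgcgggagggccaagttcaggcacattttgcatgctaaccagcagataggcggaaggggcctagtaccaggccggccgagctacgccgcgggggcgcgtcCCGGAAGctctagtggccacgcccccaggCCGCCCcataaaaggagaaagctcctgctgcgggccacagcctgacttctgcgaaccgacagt
Zfp52: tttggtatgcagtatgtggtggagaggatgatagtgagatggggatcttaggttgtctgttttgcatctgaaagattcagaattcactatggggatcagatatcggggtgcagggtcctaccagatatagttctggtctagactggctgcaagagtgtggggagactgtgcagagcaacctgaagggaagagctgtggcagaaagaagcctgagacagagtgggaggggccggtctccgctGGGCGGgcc
Zfp57: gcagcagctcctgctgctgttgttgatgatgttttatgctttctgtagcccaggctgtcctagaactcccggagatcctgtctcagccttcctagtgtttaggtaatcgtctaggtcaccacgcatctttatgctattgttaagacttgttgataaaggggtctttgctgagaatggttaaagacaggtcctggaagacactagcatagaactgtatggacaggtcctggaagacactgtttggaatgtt
Zfp46: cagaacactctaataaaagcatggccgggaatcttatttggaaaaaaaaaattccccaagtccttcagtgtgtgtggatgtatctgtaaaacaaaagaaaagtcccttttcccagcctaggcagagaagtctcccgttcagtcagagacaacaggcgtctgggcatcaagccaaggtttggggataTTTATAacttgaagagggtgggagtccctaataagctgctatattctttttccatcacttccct
In these windows Zfp36 held an ETS motif and a GC box, Zfp52 a GC box and Zfp46 a TATA box, and the Zfp57 window held none of the letters searched. The promoter table held 160 of the 199 members and 27025 genes in all. The GC box was present for 50% of members, 37.3% of the 67 KRAB members among them and 32.9% of all genes. A CCAAT box was present for 43.8% of members, 49.3% of KRAB members and 34.5% of all genes. The ETS motif was present for 15.0% of members and 7.05% of all genes, and the TATA box for 6.88% of members and 13% of all genes. The GC box overlaps with GC content, whose median in the window was 56.4% for members, 51.6% for KRAB members and 52.0% for all genes. All genes here were not chosen by level, unlike the members, and motifs were not counted for genes of the same mean. These shares therefore do not tell Zfp genes from other genes of that level.

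Total counts ran from 802016 to 3497454 per library, and the LPS libraries were shallower, with a median of 970080 against 2092799 in saline libraries. The 12 microglia markers summed to a median of 4663 CPM at E18, 14754 at P4, 25642 at P14, 36976 in P60 saline and 30234 in LPS libraries, and all 12 were called higher at P4 than at E18. RNA of other cells was also present. The 14 neuron markers summed to a median of 2265 CPM at E18 (range 655 to 3586), 183 at P4, 66.9 at P14 and 26.8 in P60 saline libraries. Ttr, a choroid plexus transcript, took over 10% of counts in the libraries titled M_E18 4 (24.8%), F_P60_Sal 6 (12%) and M_E18 3 (10.4%). M_E18 3 and M_E18 4 were the E18 libraries of the last collection date. In them the KRAB members summed to 1232 and 429 CPM, against 1973 to 2555 CPM in the other 5 E18 libraries, and transcripts of at most 1500 bases took 22.7% and 45.1% of counts, against 10.5% to 15.0%. Changes against E18 are therefore set beside those without the libraries over 10% Ttr. In bulk samples, fewer cells of a type and less RNA per cell cannot be told apart. Collection date is nested within stage and treatment, so date and stage, or date and LPS, cannot be told apart.

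Each change is a log2 fold change ± SE by edgeR's quasi-likelihood test, the later stage over the earlier or LPS over saline, averaged over the sexes, and a gene is called at a Benjamini-Hochberg adjusted p under 0.05 over all genes tested. Fold changes use TMM scaling while CPM are scaled to total counts, so they can differ. All 199 members passed the filter on low counts for the developmental comparisons and 198 for LPS, where Zfp57 did not.

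Zfp36 (tristetraprolin), the best known mRNA decay factor of its family, rose over the whole time course. Its lowest, median and highest levels were 111, 216 and 355 CPM at E18, 635, 709 and 1046 CPM at P4, 651, 877 and 1529 CPM at P14 and 858, 2004 and 3358 CPM in P60 saline libraries. All P4 libraries lay above all E18 libraries, while P14 overlapped P4 and saline overlapped P14. The changes were 1.85 ± 0.23 for P4 over E18 (edgeR, adjusted p = 1.6e-08), 0.71 ± 0.18 for P14 over P4 (adjusted p = 0.0017) and 0.97 ± 0.15 for P60 saline over P14 (adjusted p = 1.7e-06). The P14 step rested on 1 collection date: without the P14 libraries of the third date it was 0.38, with an adjusted p of 0.066. On that date the summed level of the family had a median of 2484 CPM, against 1581 and 1631 CPM on the other P14 dates.

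Zfp36l1, a paralog with the same target motif, had 42.4, 137 and 224 CPM at E18, 291, 358 and 515 CPM at P4, 353, 539 and 725 CPM at P14 and 178, 595 and 823 CPM in saline libraries, as lowest, median and highest. Zfp36l2, the third paralog, had 18.3, 69.7 and 111 CPM at E18, 146, 161 and 236 CPM at P4, 180, 321 and 532 CPM at P14 and 71.1, 438 and 614 CPM in saline libraries. For both, every P4 library was above every E18 library, and the lowest saline library was F_P60_Sal 6. Zfp36l1 changed by 1.43 ± 0.22 at P4 over E18 and 0.88 ± 0.18 at P14 over P4, and Zfp36l2 by 1.38 ± 0.28 and 1.26 ± 0.23, with edgeR adjusted p-values from 1.2e-06 to 0.00013. Neither was called between P60 saline and P14, at 0.08 ± 0.15 and 0.23 ± 0.19. Without the libraries over 10% Ttr, the P4 over E18 changes were 1.66 for Zfp36, 1.18 for Zfp36l1 and 1.11 for Zfp36l2, all still called.

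**Figure D1:**
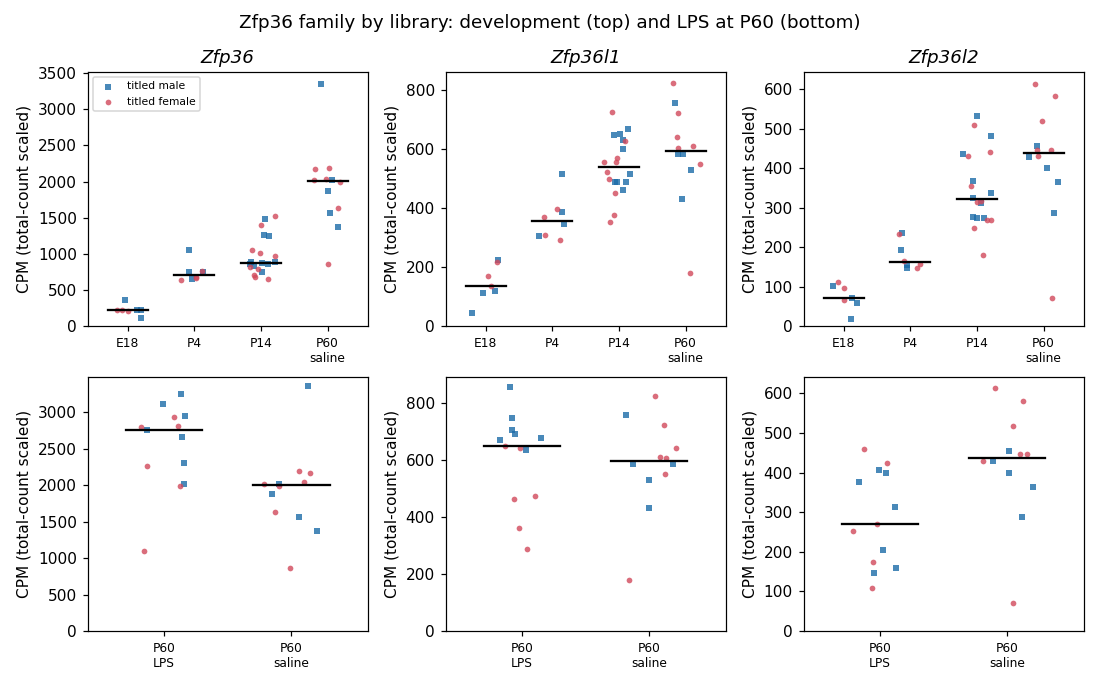
Levels of Zfp36, Zfp36l1 and Zfp36l2 in CPM (y axis, linear, total-count scaled) in each library of E18, P4, P14 and P60 saline (top) and of P60 LPS and P60 saline (bottom); squares are libraries titled male, circles libraries titled female, and bars are medians. For each gene the 8 P4 libraries lie above the 7 E18 libraries, as for 7.38% of all tested genes, and the LPS and saline libraries overlap.

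With LPS none of the 3 was called. Zfp36 had 1097, 2757 and 3253 CPM in LPS libraries, against 858, 2004 and 3358 CPM in saline libraries, a difference of 0.45 ± 0.16 with an edgeR adjusted p of 0.055. Zfp36l1 differed by 0.08 ± 0.16 and Zfp36l2 by -0.46 ± 0.24, with adjusted p-values of 0.79 and 0.22, and the libraries of both groups overlapped for all 3.

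The partners of the family were followed in the same fits. Among 22 tested genes of deadenylation and decapping, 12 rose and 0 fell at P4 over E18, where 25.5% of all tested genes were called higher and 22.7% lower, and the list median was 0.44 against 0.03 over all genes. The counts were 10 and 0 (median 0.22) without the libraries over 10% Ttr. They include Btg2, which recruits the deadenylase (1.78 ± 0.23), Dcp2, the decapping enzyme (1.01 ± 0.15), and Tob2, a relative of Btg2 (1.49 ± 0.25). At P60 saline over P14, 2 of the 22 rose, Btg2 (0.99 ± 0.15) and the deadenylase subunit Cnot8 (0.76 ± 0.12), and 7 fell, beside 18.5% and 25.7% of all tested genes, and without the libraries over 10% Ttr 5 rose and 6 fell. At P14 over P4, 7 rose and 3 fell, beside 20.6% and 20.8%. With LPS 2 of 22 rose, Btg1 (0.76 ± 0.12) and Dcp2 (0.46 ± 0.15), a share near the 10.5% of all tested genes called higher. Among 11 tested messages with AU-rich elements, 8 rose and 0 fell at P4 over E18, 2 rose and 3 fell at P14 over P4, and 2 rose and 2 fell at P60 saline over P14. With LPS 10 of the 11 rose, and the list median was 1.5 against -0.07 over all genes. Ptgs2, the inducible prostaglandin synthase, rose by 3.47 ± 0.29, the chemokine Cxcl1 by 4.43 ± 0.37 and Il6 by 2.53 ± 0.30. Tnf, the classic target of Zfp36, rose by 1.18 ± 0.24. The libraries M_P60_LPS 3, M_P60_LPS 4 and M_P60_LPS 5, all of the second LPS date, stood apart for this list, with sums of 11538, 13567 and 11240 CPM, against 3415 to 5905 CPM in the other LPS libraries. They also held the most RNA of neutrophil markers, 6176, 5334 and 2539 CPM, and of monocyte markers, 536, 711 and 220 CPM, and the part of these cells was not tested. Without the LPS libraries of that date 9 of the 11 rose, with a list median of 0.80.

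KRAB members were the class with the most genes called higher late in development. Between P60 saline and P14, 41 of 76 KRAB members rose and 6 fell, with a median change of 0.44, while 18.5% of all tested genes were called higher and 25.7% lower with a median of -0.06. Among genes reaching the same mean of 10 CPM these shares were 19.4% and 26.3%. Over all 199 members 60 rose and 43 fell. Of members with C2H2 fingers and no KRAB box, 15 of 99 were higher and 28 lower (median -0.05). These shares lay near those of genes with the same mean, whose median was -0.04. Of members with fewer than 3 C2H2 matches, 3 of 23 were higher and 9 lower (median -0.24). Under the 18 alternative settings for this comparison the KRAB members called higher numbered 34 to 48 and those called lower 1 to 6. Members called lower, 43 in all, numbered 27 without M_P60_Sal 3, 17 without the saline libraries of the third date, and 28 and 22 without the P14 libraries of the first and the third date. The KRAB members called lower numbered 2 without M_P60_Sal 3 and 3 without M_P60_Sal 4.

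Summed over the 76 KRAB members, the level had a lowest, median and highest value of 429, 2194 and 2555 CPM at E18, 1813, 1962 and 2143 CPM at P4, 1673, 2020 and 2220 CPM at P14 and 2086, 2464 and 2828 CPM in P60 saline libraries. Saline and P14 libraries overlapped between 2086 and 2220 CPM. The medians, in date order, were 2554, 2526 and 2358 CPM on the 3 saline dates and 1865, 2137 and 2035 CPM on the 3 P14 dates, so each saline date had a median above each P14 date. Choroid plexus markers also rose in this comparison, 6 of 9 called higher and 0 lower, with sums of 289 to 160069 CPM in saline and 1324 to 98821 CPM in P14 libraries, and their part was not tested. Of the 12 microglia markers, 8 were called higher and 0 lower. Other markers were called lower, 7 of 9 for astrocytes (1 higher), 9 of 12 for neurons and 6 of 12 for endothelial and mural cells (1 higher). Also lower were 5 of 10 for oligodendrocytes, 5 of 9 for neutrophils, 4 of 6 for border macrophages and 3 of 6 for monocytes (1 higher). Of 6 red blood cell markers 1 was higher and 0 lower, and the 1 lymphocyte marker tested was higher. The part of these cells in the 43 lower members was not tested.

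**Figure D2:**
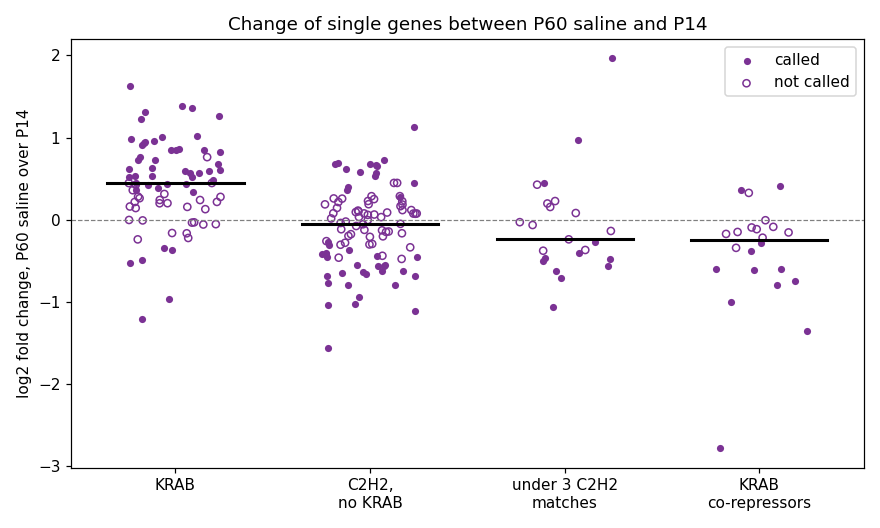
The log2 fold change of P60 saline over P14 (y axis) for single genes of the 3 protein classes of members and of the co-repressor partners of KRAB proteins; filled points passed the adjusted p of 0.05, open points did not, and bars are medians. The KRAB median of 0.44 lies above 0, and those of the other classes (-0.05 and -0.24) and of the co-repressors (-0.25) lie below it.

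Single KRAB genes moved by over 1 log2 unit at this step. Zfp52 had 27.7, 38.1 and 49.7 CPM in P60 saline libraries, against 8.37, 14.4 and 22 CPM at P14, and no library overlapped (1.36 ± 0.16, edgeR adjusted p = 7.2e-09). Zfp799 had 13, 17.1 and 26.6 CPM in saline libraries, against 2.55, 7.11 and 12.3 CPM at P14, again without overlap (1.32 ± 0.15, adjusted p = 3.4e-09). Zfp111 had 13.4, 21.2 and 37.0 CPM in saline libraries, against 3.16, 6.35 and 13.8 CPM at P14, with a narrow overlap (1.63 ± 0.18, adjusted p = 1.5e-09). Its medians were 5.44 CPM at E18 and 9.97 CPM at P4, so its P60 levels carried its mean (11.9 CPM) over the threshold. Zfp790 rose by 1.39 ± 0.18 and Zfp60 by 1.26 ± 0.17 in the same comparison. The 6 KRAB members that fell were Zfp655 (-1.21 ± 0.18), Zfp57, Zfp619, Zfp942, Zfp709 and Zfp871. Over all members, libraries did not overlap for 4 genes above and 3 below, against 0.527% and 1.81% of all tested genes.

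Few genes of the co-repressor machinery rose in this comparison. Of 22 tested partner genes 2 rose between P60 saline and P14, the heterochromatin protein gene Cbx5 (0.42 ± 0.15) and Mphosph8 (0.36 ± 0.14), and 10 fell, with a list median of -0.25. Of all tested genes 18.5% were called higher and 25.7% lower, with a median of -0.06. Without the libraries over 10% Ttr 3 partner genes rose and 10 fell. Trim28 itself fell by 0.60 ± 0.13 on the log2 scale. The largest falls were of Uhrf1, which recruits DNA methyltransferase to replicated DNA (-2.78 ± 0.24), and of Chd4 and Mta2, subunits of the NuRD complex (-1.36 ± 0.21 and -1.0 ± 0.13). At P4 over E18, 5 of 22 rose and 5 fell, beside 25.5% and 22.7% of all tested genes, and without the libraries over 10% Ttr 2 rose and 6 fell. At P14 over P4, 4 rose and 5 fell, beside 20.6% and 20.8%. For P60 saline over E18, where 31.4% of all tested genes were called higher and 34.8% lower, 3 of 22 rose, Mphosph8, Atf7ip and Setdb1, and 12 fell, or 1 and 12 without the libraries over 10% Ttr. Among those that fell were Trim28 (-1.18 ± 0.16), Hdac2 (-1.44 ± 0.12) and Uhrf1 (-4.30 ± 0.25).

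**Figure D3:**
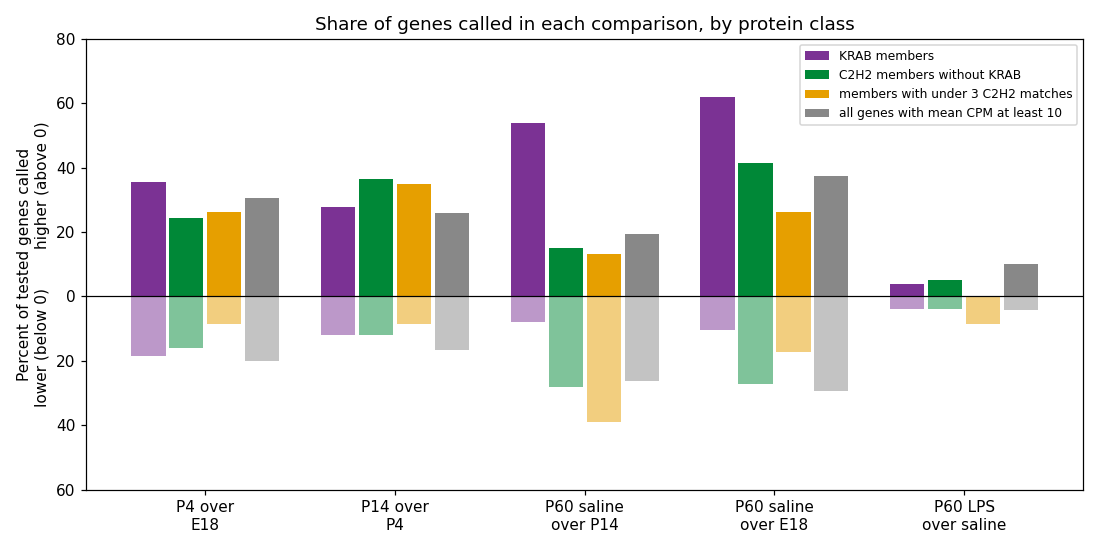
Percent of tested genes called higher (bars above 0, full colour) and lower (bars below 0, pale) in 5 comparisons, for KRAB members, C2H2 members without KRAB, members with fewer than 3 C2H2 matches and all genes with a mean of at least 10 CPM. The KRAB bar reaches 53.9% higher for P60 saline over P14, against 19.4% for all such genes.

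The first step, P4 over E18, depended on the E18 libraries. Of the 199 members 57 rose and 32 fell, and of the 76 KRAB members 27 rose and 14 fell, against 25.5% and 22.7% of all tested genes and 30.6% and 20.1% of genes with the same mean. Without the libraries over 10% Ttr the counts turned round, with 33 members higher and 55 lower, and 15 KRAB members higher and 21 lower. The member median was then -0.09 in place of 0.16, while the shares of all tested genes were 20.4% higher and 23.0% lower. With DESeq2-type size factors, 47 members were higher and 38 lower and 21 KRAB members higher and 16 lower, beside 21.1% and 27.8% of all tested genes, whose median moved to -0.10. Leaving out the single library F_E18 2 gave 36 members and 15 KRAB members higher, and leaving out M_E18 3 gave 17 KRAB members higher. Libraries did not overlap for 16 members above and 5 below, against 7.38% and 6.34% of all tested genes. Without the libraries over 10% Ttr these were 16 above and 44 below, against 8.32% and 15.6%. The direction of the members as a whole at this step therefore rested on a few E18 libraries, whereas each change named by rule at this step kept its call in each setting tried.

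Several KRAB genes rose after E18. Zfp758 had 14.3, 21.9 and 32.6 CPM at P4, against 0, 5.58 and 8.72 CPM at E18 (2.13 ± 0.27, edgeR adjusted p = 1.9e-08). Zfp456 had 4.24, 9.13 and 17.0 CPM at P4, against 0, 1.03 and 4.29 CPM at E18 (2.85 ± 0.39, adjusted p = 1.1e-07). Zfp429 had 7.42, 14.4 and 20.5 CPM at P4, against 2.19, 4.101 and 7.15 CPM at E18 (1.81 ± 0.25, adjusted p = 8.7e-08). All P4 libraries were above all E18 libraries for Zfp758 and Zfp429, and the ranges of Zfp456 overlapped narrowly. Zfp809, which silences murine leukemia virus DNA in embryonic cells, had 8.96, 11.8 and 14.2 CPM at P4, against 1.46, 4.17 and 7.69 CPM at E18 (1.41 ± 0.23). Without the libraries over 10% Ttr the changes were 1.83 for Zfp758, 2.75 for Zfp456, 1.61 for Zfp429 and 1.22 for Zfp809, all still called.

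Zfp57, which keeps DNA methylation on imprinted loci through Trim28, showed the largest fall of any member relative to E18. Its levels were 13.1, 111 and 167 CPM at E18, 8.78, 12.7 and 18 CPM at P4, 1.81, 6.55 and 28.7 CPM at P14 and 0, 3.75 and 8.39 CPM in P60 saline libraries. No saline library reached the lowest E18 library, which was M_E18 4. The change was -2.76 ± 0.36 for P4 over E18 (edgeR adjusted p = 2.9e-08) and -4.13 ± 0.35 for P60 saline over E18 (adjusted p = 4.9e-14). These were -3.17 and -4.47, both still called, without the libraries over 10% Ttr. Zfp445, a KRAB protein that shares this imprinting role, had 154, 183 and 195 CPM at P4, against 20.5, 148 and 228 CPM at E18, and was not called at this step (0.46 ± 0.21). For P60 saline over E18, Zfp445 was called higher by 0.43 ± 0.19 (edgeR adjusted p = 0.046). Its median in saline libraries was 147 CPM, and the libraries overlapped. Of the 14 neuron markers 12 were tested and all 12 were called lower at P4 than at E18. Their summed level ran from 61.5 to 239 CPM at P4 and from 655 to 3586 CPM at E18. In P60 saline libraries the neuron markers Snap25, Rbfox3, Gap43, Nefl, Nefm, Neurod2 and Neurod6 had medians of 0, and the part of neuronal RNA in the falls after E18 was not tested.

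Between P14 and P4, 66 of the 199 members rose and 23 fell, beside 20.6% and 20.8% of all tested genes and 26.0% and 16.5% of those with the same mean. Of the 76 KRAB members 21 were higher and 9 lower, shares near those of the background, and 5 were lower without the P14 libraries of the third date. With size factors of the DESeq2 type, the share of all calls that were higher moved to 37.5%, against 49.7% with TMM, and the all-gene median moved to -0.12, against -0.01. The members were then 52 higher and 29 lower, with a median of 0.12 in place of 0.23. Zfp658, whose human counterpart binds zinc-responsive elements, had 33.2, 55.5 and 81.6 CPM at P14, against 11.2, 19.0 and 27.0 CPM at P4, without overlap (1.85 ± 0.19, edgeR adjusted p = 1.7e-10). Zfp655 rose by 1.266 ± 0.20, and Zfp334 (-1.32 ± 0.28) and Zfp354c (-1.31 ± 0.24) fell. All P14 libraries were below those of P4 for Zfp354c, and Zfp46 also fell (-1.03 ± 0.16). Over all members, libraries did not overlap for 3 genes above and 4 below at this step, against 1.55% and 4.55% of all tested genes.

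Over the whole span, P60 saline over E18, 95 members rose and 39 fell, against 31.4% and 34.8% of all tested genes and 37.4% and 29.3% of those with the same mean, and 47 of 76 KRAB members rose and 8 fell. Without the libraries over 10% Ttr these counts were 81 and 51 members and 40 and 12 KRAB members. With DESeq2-type size factors the all-gene median was -0.26 in place of -0.08, the members were 86 higher and 52 lower, and the KRAB members 42 higher and 12 lower. Libraries did not overlap for 23 members above and 7 below, against 5.98% and 13.4% of all tested genes, and without the libraries over 10% Ttr for 31 above and 43 below, against 9.02% and 28.2%. The mean level rose at each of the steps from E18 through P4 and P14 to P60 saline for 36 of 199 members (18.1%) and for 18 of 76 KRAB members (23.7%), beside 8.57% of 10144 genes with the same mean. It fell at each step for 24 members (12.1%), 3 of them KRAB, beside 17.7% of those genes. Without the libraries over 10% Ttr, 32 members (16.1%) and 17 KRAB members (22.4%) rose at each step, beside 8.77% of those genes, and 26 members (13.1%) fell, 5 of them KRAB, beside 20.8%. The mean summed KRAB level at E18 was 1914 CPM over all 7 libraries and 2347 CPM over the other 5, against 1968 CPM at P4, so the direction of its first step turned. By chromosome, 10 of the 15 KRAB members on chromosome 7, 8 of 18 on chromosome 17 and 7 of 9 on chromosome 13 were called higher at P60 saline than at P14. On chromosomes 8 and 9 these were 3 of 9 and 3 of 8. Over all KRAB members 41 of 76 were called higher, beside 18.5% of all tested genes, and a difference between chromosomes was not tested.

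Among C2H2 members without a KRAB box, Zfp238, Zfp462 and Zfp41 had their highest medians at E18. Zfp238 (Zbtb18), a BTB-domain repressor required in cortical neurons, had 93.5, 425 and 612 CPM at E18, 106, 125 and 136 CPM at P4, 83.9, 109 and 131 CPM at P14 and 116, 181 and 260 CPM in P60 saline libraries. It fell by 1.5 ± 0.17 on the log2 scale at P4 over E18 (edgeR adjusted p = 2.0e-09) and rose again between P14 and P60 saline (0.70 ± 0.12, adjusted p = 7.2e-06). Of the E18 libraries, M_E18 3 and M_E18 4 lay within the range of the later stages. Zfp462, a heterochromatin-associated protein whose human counterpart is linked to a developmental disorder, had 8.76, 137 and 217 CPM at E18, 18.9, 45.9 and 65.2 CPM at P4, 0.850, 10.4 and 22.9 CPM at P14 and 0, 9.97 and 20.7 CPM in saline libraries. It fell at both early steps, by 1.39 ± 0.38 and 1.68 ± 0.32, and was not called at P60 saline over P14. Without the libraries over 10% Ttr the P4 over E18 changes were -1.86 for both Zfp238 and Zfp462, still called.

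Zfp41 had 13.9, 46.8 and 82.9 CPM at E18, 19.2, 24.4 and 28.3 CPM at P4, 1.81, 6.86 and 12.8 CPM at P14 and 3.63, 8.31 and 14.7 CPM in saline libraries, and P14 did not overlap P4 (-1.42 ± 0.20, edgeR adjusted p = 2.2e-07). Zfp423 and Zfp521, related proteins that act with EBF factors, fell by 1.19 ± 0.27 and 1.03 ± 0.30 on the log2 scale at P14 over P4. Zfp821 and Zfp637 had every P4 library below every E18 library, with changes of -1.5 ± 0.20 and -1.55 ± 0.21, or -1.70 and -1.496 without the libraries over 10% Ttr. In the other direction, Zfp691 had 4.47, 6.56 and 10.7 CPM at E18, 6.36, 11.0 and 19.5 CPM at P4, 21.0, 37.3 and 66.3 CPM at P14 and 39.9, 68.1 and 82.5 CPM in saline libraries. Its P14 libraries all lay above those of P4, and the change was 2.11 ± 0.21 (adjusted p = 9.3e-11). Zfp710 rose by 1.81 ± 0.36 at P4 over E18 (1.496 without the libraries over 10% Ttr) and 0.94 ± 0.28 at P14 over P4.

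**Figure D4:**
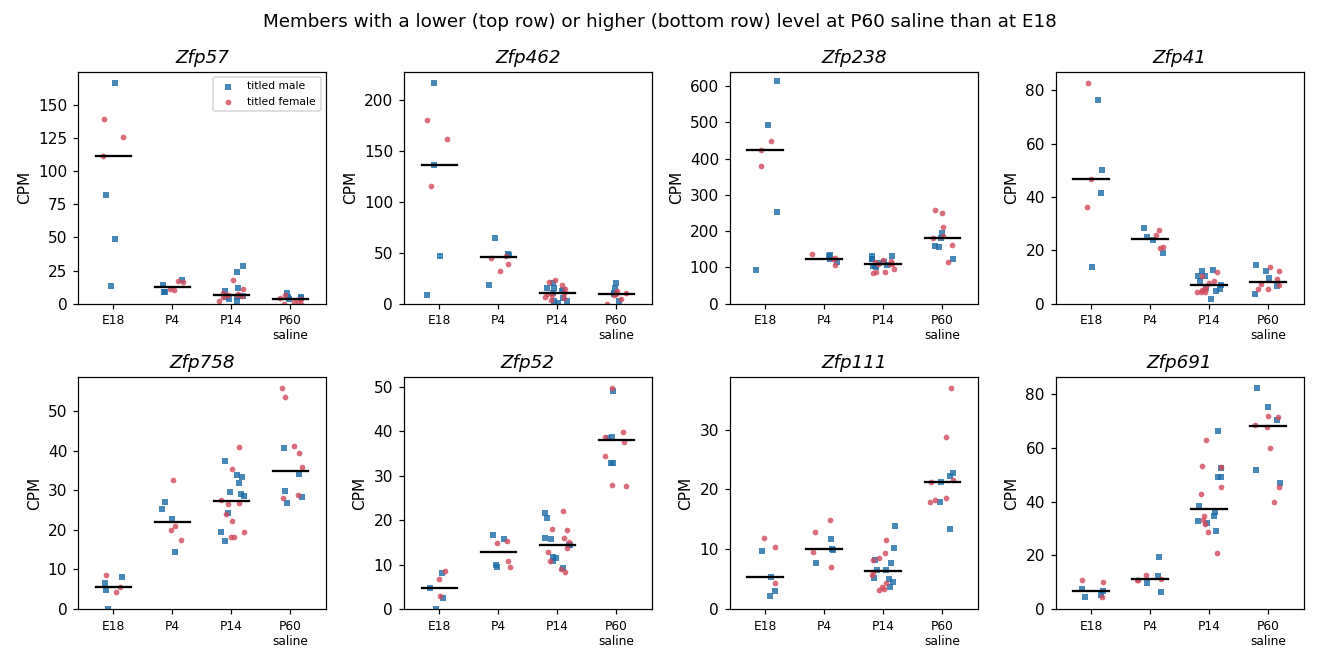
Levels in CPM (y axes, linear) of 8 members in each library of E18, P4, P14 and P60 saline; squares are libraries titled male, circles libraries titled female, and bars are medians. Zfp57, Zfp462, Zfp238 and Zfp41 (top) have their highest medians at E18, and Zfp758, Zfp52, Zfp111 and Zfp691 (bottom) at P60 saline.

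Of 11 members of chromatin complexes, 4 rose and 1 fell at P4 over E18, 4 rose and 2 fell at P14 over P4, and 1 rose and 3 fell at P60 saline over P14. Among all genes of the same mean, 30.6% and 20.1%, 26.0% and 16.5%, and 19.4% and 26.3% were called higher and lower at these steps. At P4 over E18, 2 of the 11 rose and 6 fell without the libraries over 10% Ttr. Zfp217, a subunit of CoREST-type co-repressor complexes, rose by 1.42 ± 0.25 at P4 (1.08 without those libraries) and by 0.54 ± 0.20 at P14. Zfp592 rose by 0.78 ± 0.24 and 0.79 ± 0.19 at these steps and then fell by 0.69 ± 0.17 on the log2 scale, and without those libraries the first of these changes was 0.41 and not called (edgeR adjusted p = 0.051). Of 14 promoter-binding activators and repressors, 2 rose and 0 fell at P4 over E18, 6 rose and 2 fell at P14 over P4, and 2 rose and 7 fell at P60 saline over P14, to be read against the same shares. At P4 over E18, 1 rose and 1 fell without the libraries over 10% Ttr. Zfp703, a co-repressor of the NET family, had 75.2, 120 and 162 CPM at P14, against 40.8, 62.4 and 79.5 CPM at P4 (1.29 ± 0.21), and then 17.5, 58.6 and 96.9 CPM in saline libraries, lower than at P14 (-1.06 ± 0.18). Zfp516, which drives brown fat genes in mice, had 6.23, 35.8 and 52.3 CPM in saline libraries, against 65.7, 107 and 183 CPM at P14, with no overlap (-1.57 ± 0.18, edgeR adjusted p = 1.5e-09). Zfp143, which binds promoters of many housekeeping genes, rose by 0.66 ± 0.14 between P14 and P60 saline.

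Of 9 members that act on RNA, ribosomes or the spindle, 3 rose and 0 fell at P4 over E18, 4 rose and 0 fell at P14 over P4, and 0 rose and 5 fell at P60 saline over P14. Genes of the same mean were called higher for 30.6%, 26.0% and 19.4% and lower for 20.1%, 16.5% and 26.3% at these steps. At P4 over E18, 0 of the 9 rose and 1 fell without the libraries over 10% Ttr. Zfp622, a factor of large ribosomal subunit maturation, rose by 0.74 ± 0.17 at P14 over P4 and fell by 0.45 ± 0.15 on the log2 scale at P60 saline over P14. Zfp598, a ubiquitin ligase of stalled ribosomes, changed by 0.68 ± 0.17 and -0.40 ± 0.15 at the same steps. Zfp207 (BuGZ), a kinetochore and spindle protein, had 117, 158 and 196 CPM at P14 and 199, 209 and 242 CPM at P4, which did not overlap in CPM, yet under TMM scaling the difference was -0.15 ± 0.09 with an edgeR adjusted p of 0.21. Zfp185 had 1.14, 46.6 and 125 CPM in saline libraries, against 0, 13.3 and 33.8 CPM at P14 (1.96 ± 0.35, adjusted p = 1.6e-05), with overlapping libraries.

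Few members were called with LPS. Of 198 tested, 8 were called higher and 9 lower, while 10.5% of all tested genes were called higher and 3.95% lower (10.2% and 4.07% of those with the same mean), and the medians of members and of all genes were both -0.07. Among KRAB members 3 of 75 were higher and 3 lower, against 5 of 99 higher and 4 lower among C2H2 members without KRAB. In DESeq2 the counts were 12 and 12. The count of lower members moved between 2 and 16 over the alternatives, with 2 when the LPS libraries of the third date were left out, 16 without those of the first, 5 without the saline libraries of the second date and 4 without M_P60_Sal 5. The count of higher members was 5 without the saline libraries of the third date and 13 without M_P60_Sal 2. LPS libraries also held more neutrophil RNA, with 7 of 7 tested markers called higher and sums of 392 to 6176 CPM, against 18.5 to 439 CPM in saline libraries. Monocyte markers were called higher for 4 of 6, and astrocyte markers for 2 of 6. Other markers were called lower, 5 of 12 for microglia, 3 of 6 for oligodendrocytes and 2 of 2 for neurons, with 0 higher. Of 12 endothelial and mural markers 5 were lower and 1 was higher. The part of these cells in the member results was not tested.

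Zfp46, a KRAB gene, was the 1 member whose LPS libraries all lay above the saline libraries, and no member lay below. In all, 1.28% of tested genes had no overlap in either direction. It had 33.0, 55.9 and 90.4 CPM in LPS libraries, against 8.73, 17.5 and 22.2 CPM in saline libraries. It rose by 1.95 ± 0.15 (edgeR adjusted p = 1.3e-10). In date order, its medians were 59.1, 60.7 and 45.5 CPM on the LPS dates, against 18.2, 17.5 and 16.5 CPM on the saline dates. Zfp281, a regulator of stem cell genes that binds GC-rich promoters, had 38.0, 75.4 and 204 CPM in LPS libraries, against 22.4, 45.4 and 65.7 CPM in saline libraries (1.00 ± 0.18, adjusted p = 0.00012). Its highest LPS libraries were those of the second date, with a median of 135 CPM against 70.3 and 83.0 CPM on the other LPS dates.

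Zfp516 had 22.4, 48.3 and 152 CPM in LPS libraries, against 6.23, 35.8 and 52.3 CPM in saline libraries (0.77 ± 0.23, edgeR adjusted p = 0.019), but without the LPS libraries of the second date the difference was 0.29 (adjusted p = 0.39), and without the saline libraries of the third date it was 0.67 (adjusted p = 0.088). Zfp1, a KRAB gene, rose by 0.72 ± 0.15, Zfp295 (Zbtb21), a BTB-domain repressor, by 0.70 ± 0.17 and Zfp622 by 0.61 ± 0.14. Zfp263 and Zfp445 completed the 8 higher members, at 0.60 ± 0.15 and 0.34 ± 0.12. Zfp295 was not called without the LPS libraries of the third date, at 0.49 (adjusted p = 0.098).

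The lower members were led by Zfp366 (DC-SCRIPT), a factor of dendritic cells, with 1.18, 5.57 and 9.87 CPM in LPS libraries, against 1.247, 13.1 and 19.4 CPM in saline libraries (-1.05 ± 0.34, edgeR adjusted p = 0.032). Zfp691 had 17.4, 30.4 and 56.3 CPM in LPS libraries, against 39.9, 68.1 and 82.5 CPM in saline libraries (-0.94 ± 0.17, adjusted p = 0.00017). Zfp658 had 27.3, 47.3 and 68.7 CPM in LPS libraries, against 49.9, 88.6 and 114 CPM in saline libraries (-0.75 ± 0.14, adjusted p = 0.00034). Both Zfp691 and Zfp658 kept their call in each alternative, while Zfp366, Zfp395 (-0.84 ± 0.22), Zfp12 (-0.59 ± 0.18) and Zfp467 (-0.59 ± 0.19), a regulator of adipocyte fate in mice, lost it in 3 to 8 of theirs. Zfp238 (-0.48 ± 0.14), Zfp120 (-0.39 ± 0.13) and Zfp706 (-0.31 ± 0.08) were also lower. Without the LPS libraries of the third date, only Zfp691 and Zfp658 were still called lower. Zfp467 was also not called with sex taken from the characteristic.

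**Figure D5:**
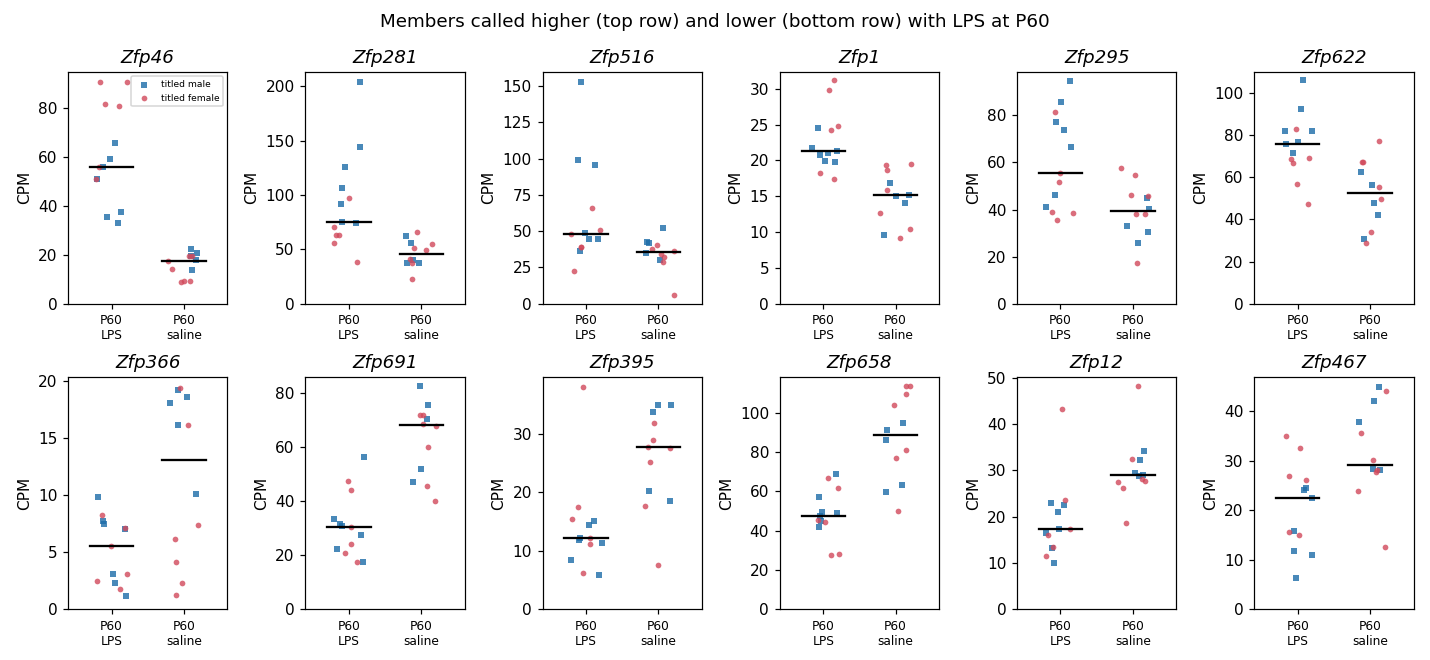
Levels in CPM (y axes, linear) of the 6 members with the largest rises (top) and the 6 with the largest falls (bottom) with LPS, in each P60 LPS library (left) and P60 saline library (right); squares are libraries titled male, circles libraries titled female, and bars are medians. Only for Zfp46 do the groups not overlap.

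No member was called between males and females at any stage in edgeR with sex and stage or treatment alone, nor in the tests of sex by age and sex by LPS. This did not hold in each other fit: without the libraries over 10% Ttr 5 members were higher for sex by LPS, and with collection date as a block 1 was called in LPS libraries. Over all genes, 6 to 10 of 13853 were called by sex at E18, P4, P14 and P60 saline (0.0433% to 0.0722%) and 15 of 10538 with LPS (0.142%), with 0 (0%) for sex by age and 93 (0.883%) for sex by LPS. At an unadjusted p under 0.05 the members numbered 18 at E18, 0 at P4, 7 at P14, 17 in saline and 23 in LPS libraries, 10 for sex by age and 40 for sex by LPS. In the same order these were 9.05%, 0%, 3.52%, 8.54%, 11.6%, 5.03% and 20.2% of members, against 18.8%, 0.332%, 4.73%, 9.67%, 16.2%, 12.4% and 21.4% of all tested genes. DESeq2 called 1 member in saline libraries, 1 in LPS libraries and 5 for sex by LPS, and 0 elsewhere. The smallest p with LPS was that of Zfp281, with 118 ± 46.1 CPM in males and 64.6 ± 19.4 CPM in females (SD, n = 7 and 6), a difference of 0.89 ± 0.24 with an edgeR adjusted p of 0.11. Its median was highest on the second LPS date (135 CPM). That date held M_P60_LPS 3, M_P60_LPS 4, M_P60_LPS 5 and F_P60_LPS 4, so the sexes were unevenly spread over dates. In saline libraries Zfp523 had 21.5 ± 6.96 CPM in males and 9.90 ± 3.36 CPM in females (SD, n = 5 and 7; 1.02 ± 0.25, edgeR adjusted p = 0.15). At E18 the member median was -0.38, male minus female, with the low libraries M_E18 3 and M_E18 4 on the male side, and leaving out the library M_E18 2 gave 30 members called lower and 1 higher in males, with 3 called for sex by age, and leaving out M_E18 1 gave 1 lower. For sex by LPS, 1 member was higher without M_P60_Sal 1 and 2 without M_P60_Sal 2.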

How the data were processed

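The authors deposited whole-number counts per transcript for 60 libraries in 1 table. Per the submitters' processing notes, CASAVA 1.8.2, edgeR and mm9 were used. The aligner and counter are not stated there. Per the labels, libraries came from a stranded poly(A) kit. One transcript row per gene was kept: the marked row for 21988 symbols, the row with most counts for 881. For 15 members, among them Zfp238, Zfp821, Zfp655, Zfp790, Zfp467, Zfp217 and Zfp809, the row used did not hold the most counts. Finger genes that share near-identical sequence may share reads.

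The members and lists were chosen with earlier results of these data known. The KRAB box pattern (first 330 residues) was widened after sequences and stage means had been seen. Counts were tested with edgeR 4.0.16 (TMM, default filter, robust quasi-likelihood F test, two-sided, R 4.3.3): 47 developmental libraries in 8 groups of sex and stage, and 25 P60 libraries in 4 groups, with Benjamini-Hochberg adjustment over all genes. The method was tested on simulated data. Named are the 6 largest called rises and falls of each comparison, the 10 members with the most CPM and the Zfp36 family, 48 genes in all, with the 3 partners of smallest p per direction and list. Zfp809, Zfp263, Zfp120, Zfp143, Zfp217, Zfp592, Zfp598, Zfp521, Zfp619, Zfp942, Zfp709 and Zfp523, and the partners Trim28 and Tnf, were named after their values were seen.

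Replicate numbers paired libraries of the sexes at P4, where 4 of 4 shared a collection date and deviations correlated by 0.39 to 0.52. At P14, 10 of 10 shared a date but the lowest correlation was -0.22, and at E18 and P60 numbers did not pair throughout. Alternatives were DESeq2 1.42.0, its size factors in edgeR, no filter, other transcript rows, sex labels, blocks, and libraries or dates left out. Over the 178 pairs of libraries within groups, the lowest chi-square per gene was 1.96, so no pair differed by sampling noise alone.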

Additional observations from a re-analysis of the deposited data

Results flagged for a closer look

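Groups of 1 titled sex at 1 stage or treatment, with 4 to 10 libraries each, were tested over the named members. Of 432 such groups, 22 had 1 library standing apart from the rest of its group by Dixon's test, which chance does for about 1 group in 20 (5%). In saline females, F_P60_Sal 6 (12% Ttr) accounted for 7: it was low for Zfp36 (858 CPM), Zfp36l1 (178), Zfp36l2 (71.1), Zfp516 (6.23), Zfp710 (31.2) and Zfp91 (73.6) and high for Zfp637 (21.2). Zfp710 was also high in M_P60_Sal 2 (391 CPM) and low in F_P4 1 (60.8 CPM). Among LPS libraries of the same titled sex, the level stood apart for Zfp1 in M_P60_LPS 3 (24.5 CPM), Zfp185 in M_P60_LPS 1 (63.2), Zfp385c in F_P60_LPS 4 (30.9), Zfp395 and Zfp57 in F_P60_LPS 3 (38.0 and 10.3), Zfp691 in M_P60_LPS 6 (56.3) and Zfp703 in M_P60_LPS 5 (113). Over LPS libraries of both sexes, Zfp1 reached 31.3 CPM and Zfp185 94.4 CPM, above these values. At P14 the level stood apart within its sex for Zfp385c in F_P14 6 (14.8 CPM), Zfp456 in F_P14 7 (23.2), Zfp706 in M_P14 5 (253) and Zfp953 in M_P14 9 (18.1). The others were Zfp185 in M_E18 3 (22.5 CPM) and Zfp207 in F_P4 2 (242 CPM). Over both sexes at E18, Zfp185 reached 31.8 CPM.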

How the results depend on the processing

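None of the 67 called changes that named a member by rule or belonged to the Zfp36 family changed sign. The balance of member counts at P4 over E18 turned round without the libraries over 10% Ttr. Counts of members called (higher, then lower) that moved by over 1.5 times were, for P4 over E18 without the libraries over 10% Ttr, 33 and 55 of members and 15 KRAB members higher. For P14 over P4, 5 KRAB members were lower without the third P14 date. For P60 saline over P14, members lower were 28 without the first P14 date, 22 without the third and 17 without the third saline date, and KRAB members lower were 2, 2, 2 and 1 without the first P14 date, the third P14 date, the second saline date and the third saline date. For P60 saline over E18, DESeq2 called 13 KRAB members lower. With LPS, members lower were 5 without the second saline date, 2 without the third LPS date and 16 without the first, and members higher 5 without the third saline date. By sex, DESeq2 called 1 member higher in saline and 1 in LPS libraries, and 3 higher and 2 lower for sex by LPS; the collection date as a block gave 1 in LPS libraries, and sex by LPS gave 5 higher without the libraries over 10% Ttr and 1 without the first LPS date. The cause was not tested.

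Leaving out 1 library at a time from groups of at most 5 gave, higher and lower, 36 to 68 and 30 to 46 members for P4 over E18 (KRAB 15 to 30 and 12 to 19), 52 to 65 and 17 to 25 for P14 over P4 (KRAB 17 to 22 and 6 to 10), 53 to 69 and 27 to 43 for P60 saline over P14 (KRAB 36 to 47 and 2 to 6), 87 to 101 and 35 to 48 for P60 saline over E18 (KRAB 41 to 50 and 7 to 12) and 7 to 13 and 4 to 9 for LPS. By sex the ranges were 0 to 1 and 0 to 30 at E18, 0 to 0 at P4 and in saline libraries, 0 to 3 for sex by age and 0 to 2 and 0 to 0 for sex by LPS.

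With the replicate number as a block, 5 members were lower with LPS, 2 were higher in males in saline libraries and 9 for sex by LPS. In the block fits the other counts of members stayed within 1.5 times. Of 67 changes of named members, 7 lost their call under at least 1 setting and 60 under none. LPS libraries had the lowest median depth, and what depth did to the member calls was not tested.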

Other observations

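The BTB-domain zinc finger genes named Zbtb, relatives outside the Zfp names, gave a comparison. Of the 38 such genes, 26 reached a mean of 10 CPM. Between P60 saline and P14, 3 of these rose and 7 fell (median -0.09), near the 19.4% and 26.3% of all genes with that mean, while 41 of 76 KRAB members rose and 6 fell, a difference that was not tested. At P4 over E18, 11 rose and 3 fell (median 0.32), beside 30.6% and 20.1% of such genes. The E18 libraries over 10% Ttr, without which the member balance at this step turned round, are included here. The Zbtb genes were not counted without them. With LPS 3 rose and 1 fell (median 0.07), beside 10.2% and 4.07%.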
